A study of Rattus norvegicus with 21 samples.

Results

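The genes described here encode the protein-folding and quality-control machinery of the endoplasmic reticulum (ER): chaperones, disulfide enzymes, factors of ER-associated degradation (ERAD), and the sensors of ER stress. They were taken by name from a list of 40 symbols. Of these, 38 had a row among the 17025 genes of the count table: 15 chaperones and co-chaperones, 9 disulfide enzymes, 10 degradation factors and 4 genes of the stress sensors. Edem1 and Derl2 were listed but had no row and were not analysed here. Each of the 38 passed the filter on low counts, as did 12576 genes in all. The lowest raw count of any of them was 232, for Ern1 in the preparation 1 library of 24 h GLT with compound E.

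RNA was sequenced from primary pancreatic islets of Sprague Dawley rats in 21 libraries. Islets of 8 rats were pooled, divided over the culture groups, and the experiment was run in 3 separate islet preparations. Glucolipotoxic (GLT) medium held 27 mM glucose with 300 µM palmitate, a saturated fatty acid, and control medium held 11 mM glucose without palmitate. Some GLT cultures also held compound D or compound E at 300 nM, and the labels give neither a structure nor a target for these compounds. The groups were 24 h GLT with compound E (2 libraries, preparations 1 and 2), 24 h GLT with compound D (3), 24 h GLT (3), 3 h GLT with compound E (1, preparation 2), 3 h GLT with compound D (3), and 3 h control (3). A further 6 libraries, numbered conditions 2 and 3 in each preparation, are named in opposite ways by the sources. The sample records call condition 2 the 24 h control and condition 3 the 3 h GLT group, while the deposited sample sheet calls condition 2 the 3 h GLT group and condition 3 the 24 h control. Comparisons that use neither come first, and those that use either are given by condition number with both readings.

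Secretory proteins such as proinsulin fold in the ER, where the Hsp70 chaperone BiP (Hspa5) holds unfolded chains and its co-chaperones set the pace of its cycle. Protein disulfide isomerases make and reshuffle disulfide bonds, and chains that fail to fold are recognised, moved back to the cytosol and degraded. When unfolded protein builds up, the sensors Ire1 (Ern1), Atf6 and Perk (Eif2ak3) are activated, and the transcription factors Xbp1 and Atf6 then raise the transcription of many chaperone and degradation genes. Beta cells depend on this machinery because insulin makes up much of what they secrete.

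Depth ran from 22.3 to 40.2 M counts in genes per library, and levels are given as CPM, a gene's counts scaled to the library's total in genes with TMM factors. CPM are not divided by transcript length, so levels of different genes are not set against each other. The 2 insulin genes took 9.32% to 45.9% of counts, TMM factors ran from 0.682 to 1.32, and the 38 genes together took 1.41% to 3.37%. Beta cell markers summed to between 79244 and 632892 CPM in all libraries, so the labelled tissue carried its defining genes. The 13 measured acinar markers summed to 5.93 to 25.9 CPM, with Ptf1a at 0.107 CPM or less, so markers of the enzyme-secreting cells around islets were near 0. In these bulk libraries, fewer cells of a type and less RNA per cell cannot be told apart. Summed endothelial markers were 27.0 to 106 CPM in the 24 h GLT libraries with or without a compound and 169 to 228 CPM in the undisputed 3 h libraries. They were 196 to 228 CPM in condition 2 and 74.3 to 110 CPM in condition 3. The 3 measured red cell markers summed to 0.188 to 1.06 CPM in the 24 h GLT libraries with or without a compound. They summed to 3.10 to 12.4 CPM in the undisputed 3 h libraries, 8.06 to 12.3 CPM in condition 2 and 0.430 to 0.571 CPM in condition 3. By both sets condition 2 lay with the 3 h libraries and condition 3 with or near the 24 h ones, which are the times on the sheet. The labels were not tested.

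There were 3 libraries that stood apart. The preparation 1 library of 24 h GLT with compound E had a TMM factor of 0.682 and 42.6% of its counts in the insulin genes, and the preparation 2 library of 24 h GLT with compound D had 0.754 and 43.3%. Edem3 (12.3 and 15.9 CPM), Sel1l (78.7 and 102 CPM), Hspa13 (35.6 and 50.1 CPM), Ern1 (11.2 and 14.2 CPM) and Atf6 (36.7 and 29.7 CPM) were lower in these libraries than in every other library. The preparation 2 library of condition 3 had 23.4% of its reads aligned to more than 1 place, against 8.51% or less elsewhere, and its Selk level of 45.4 CPM was the lowest of the 21.

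With compound D at 24 h, most of these genes lay on one side of 24 h GLT. Against 24 h GLT, 8 of the 38 fell and none rose with compound D, where 2.12% of all genes tested fell and 1.96% rose (edgeR's quasi-likelihood test, Benjamini-Hochberg adjusted p below 0.05 over all genes, n = 3 libraries each). The chaperones held 5 of the 8, the disulfide enzymes 2 and the degradation factors 1, and none of the 4 sensor genes passed. The fitted fold change was below 0 for 36 of 38 genes, and their median log2 fold change was -0.46, against 0.01 over all genes. Every library with compound D lay below every 24 h GLT library for 20 of the 38 genes, as for 8.86% of all genes. In paired differences, 30 of the 38 were lower with compound D in each of the 3 preparations, against 18.98% of all genes. The size differed by preparation, with median log2 differences of -0.56, -0.55 and -0.31 in preparations 1, 2 and 3. The number of genes called depended on single libraries. It was 1 (Hspa5) without the 24 h GLT library of preparation 1 or of preparation 2. It was 4 without the compound D library of preparation 1 and 2 (Hspa5 and Derl3) without that of preparation 2. Without preparation 3 it was 1 (Hsp90b1), with 87 of all genes, and without preparation 1 it was 0, with 0 of all genes. The full fit called 513 of all genes.

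**Figure D1:**
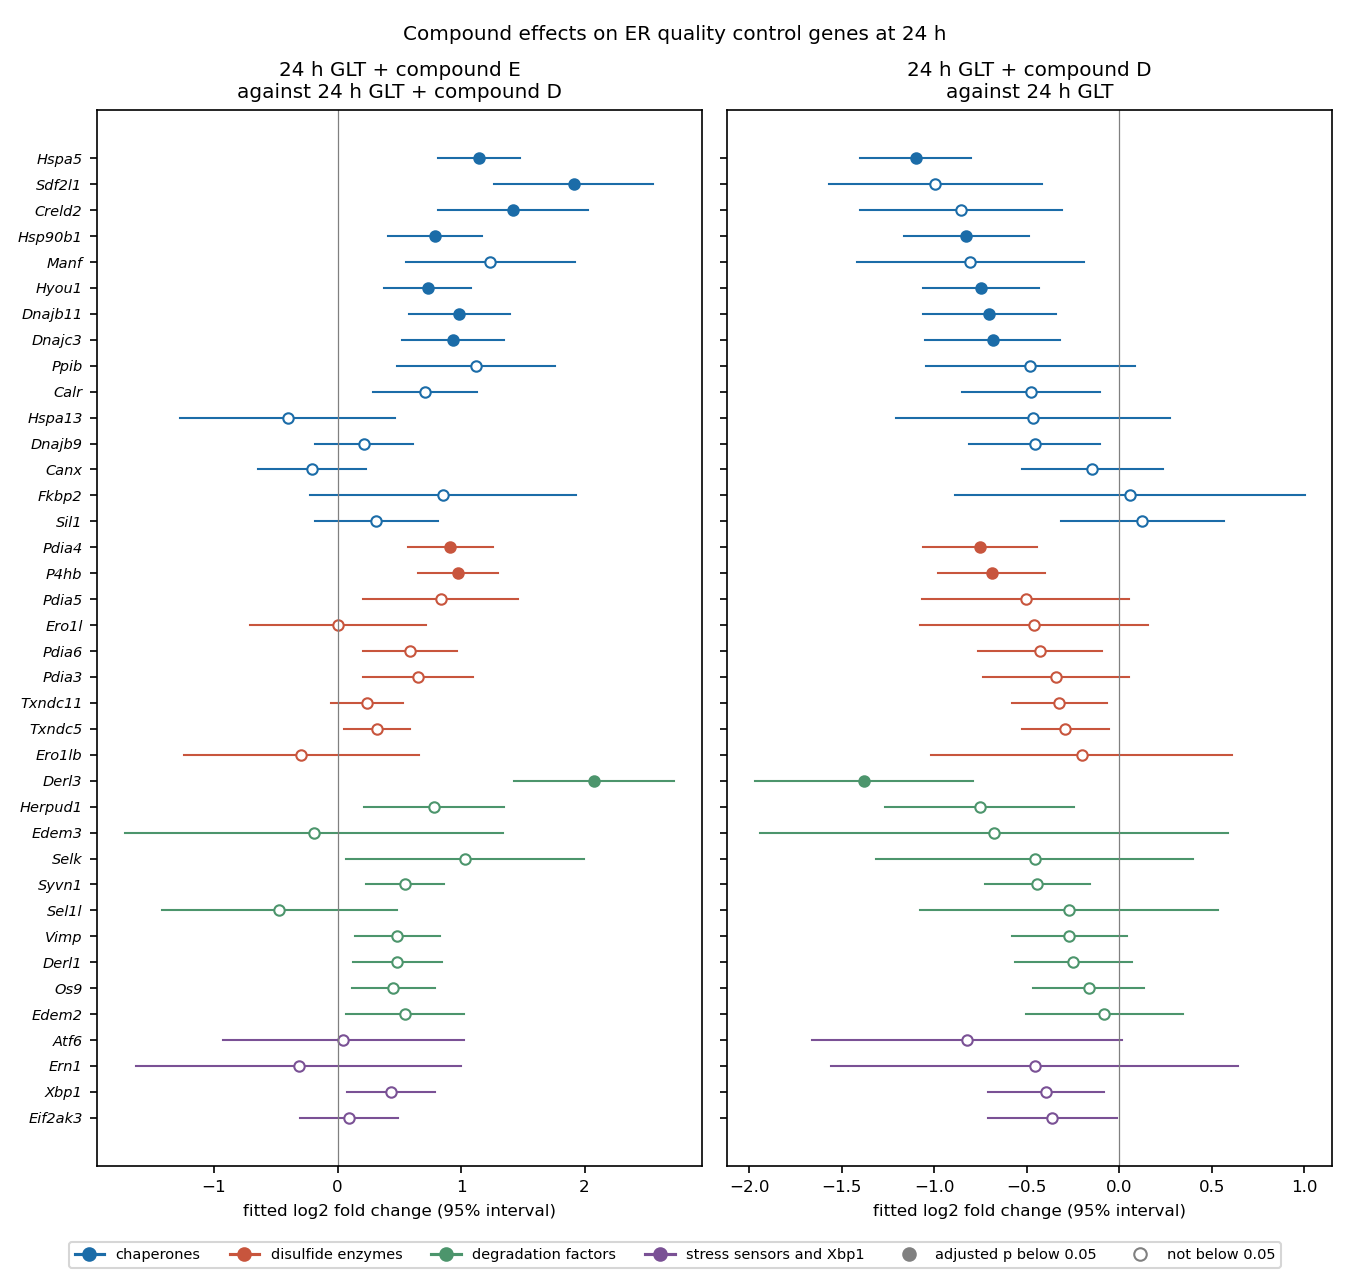
Fitted log2 fold changes (x axis) with 95% intervals for the 38 genes, one per row, grouped by role, for 24 h GLT with compound E (n = 2) against 24 h GLT with compound D (n = 3) on the left and for compound D against 24 h GLT (n = 3) on the right. Filled points passed an adjusted p of 0.05: 10 genes, all to the right of 0, in the left panel and 8, all to the left of 0, in the right panel.

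Hspa5, the gene of BiP, had 2688, 2717 and 2927 CPM in 24 h GLT with compound D in preparations 1, 2 and 3, against 6075, 5529 and 6259 CPM in 24 h GLT. The 3 libraries with compound D were also below the other 18 libraries, the lowest of which, in condition 3, had 3442 CPM. The fold change was 0.466 (log2 -1.10, SE 0.14, adjusted p = 0.000825 by edgeR), and it ran from -1.16 to -1.06 over 33 alternative settings. It passed the threshold in 31 of these, the exceptions being the fits without preparation 1 and without preparation 3. The 250 bases upstream of its annotated start (RefSeq, GRCr8, chr3:38452766-38453015, plus strand) hold 1 exact match to the ER stress response element (ERSE). Atf6 binds this element together with the general factor NF-Y, and imperfect copies were not searched for. The upstream sequence is shown because Hspa5 had the smallest adjusted p of the 38, with the fixed bases of the match in capitals.

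Hspa5 upstream: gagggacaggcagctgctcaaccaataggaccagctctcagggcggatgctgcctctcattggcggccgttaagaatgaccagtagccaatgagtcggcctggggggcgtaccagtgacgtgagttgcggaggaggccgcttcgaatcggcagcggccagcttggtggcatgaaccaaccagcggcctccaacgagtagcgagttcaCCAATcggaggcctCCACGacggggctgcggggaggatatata

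Hsp90b1 (Grp94, the Hsp90 of the ER) had 1609, 1466 and 1817 CPM with compound D at 24 h, against 3285, 3032 and 2443 CPM in 24 h GLT. Hyou1 (Grp170, a large Hsp70-like protein that acts as a nucleotide exchange factor for BiP) had 1104, 1003 and 1276 CPM with compound D, against 1923, 1908 and 1827 CPM. The groups did not overlap for either gene, and both differences were smallest in preparation 3. Hsp90b1 fell to 0.564 times (log2 -0.83, SE 0.16, adjusted p = 0.00999 by edgeR) and Hyou1 to 0.596 times (-0.75, SE 0.15, adjusted p = 0.0116). Of the 3 J-domain co-chaperones of BiP, 2 also fell. Dnajb11 (ERdj3) had 150, 182 and 193 CPM with compound D, against 302, 327 and 234 CPM in 24 h GLT (log2 -0.70, SE 0.17, adjusted p = 0.0321 by edgeR). Dnajc3 (p58IPK) had 224, 232 and 258 CPM, against 438, 431 and 294 CPM (-0.68, SE 0.17, adjusted p = 0.0378). In preparation 3 these 2 genes differed by -0.27 and -0.19 on the log2 scale, and by -0.84 to -1.01 in preparations 1 and 2.

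Of the other 10 chaperones, none passed. Sdf2l1, a partner of the Dnajb11 complex, had 30.0, 57.8 and 30.4 CPM with compound D against 67.7, 101 and 63.1 CPM in 24 h GLT, groups that did not overlap (log2 -0.99, SE 0.27, adjusted p = 0.0523 by edgeR). Creld2 (-0.86), Manf (-0.80), both ER stress-inducible secretory proteins, Dnajb9 (ERdj4, -0.46) and Hspa13, an Hsp70-like protein (-0.47), were also below without overlap. Of the lectin chaperones that bind glycoproteins, Calr, the soluble one, had a log2 fold change of -0.48 with overlapping groups, and Canx, the membrane-bound one, -0.15 with a 95% interval of -0.53 to 0.24. Ppib (cyclophilin B) was at -0.48. Sil1, an exchange factor of BiP, and Fkbp2, a prolyl isomerase, were the 2 genes above 0 (0.13 and 0.06).

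Among the disulfide enzymes, P4hb (the founding protein disulfide isomerase) had 1270, 1282 and 1624 CPM with compound D, against 2226, 2320 and 2142 CPM in 24 h GLT. Pdia4 (ERp72) had 240, 246 and 274 CPM, against 417, 468 and 394 CPM. Neither gene's groups overlapped, and the largest value with compound D, that of preparation 3, was below the smallest of 24 h GLT. P4hb fell to 0.620 times (log2 -0.69, SE 0.14, adjusted p = 0.0116 by edgeR) and Pdia4 to 0.593 times (-0.75, SE 0.15, adjusted p = 0.0104). The other 7 lay between -0.51 (Pdia5) and -0.20 (Ero1lb), and none of them passed. Pdia3 (ERp57, the isomerase that works with Calr and Canx) was at -0.34 and Pdia6 at -0.43, with overlapping groups. Ero1l, an oxidase that recharges the isomerases, was at -0.46 with overlapping groups, at 365, 110 and 261 CPM with compound D, against 381, 301 and 310 CPM in 24 h GLT.

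Among the degradation factors, Derl3, a membrane protein of the Derlin family that takes part in moving proteins out of the ER, had 7.65, 12.9 and 7.99 CPM with compound D, against 18.6, 30.9 and 25.4 CPM in 24 h GLT. The 3 libraries with compound D were the lowest of all 21. It fell to 0.384 times (log2 -1.38, SE 0.28, adjusted p = 0.0127 by edgeR), while its relative Derl1 was at -0.25 (95% interval -0.56 to 0.07). Herpud1, a scaffold of the degradation complex, was lower without overlap (215, 269 and 166 CPM with compound D against 343, 305 and 419 CPM in 24 h GLT, log2 -0.76, SE 0.24, adjusted p = 0.1004 by edgeR). Syvn1 (Hrd1), the ubiquitin ligase of that complex, was lower by nearly the same amount in each preparation (-0.42, -0.44 and -0.48). Sel1l, its partner, was at -0.27. The lectin Os9 was at -0.17, Edem2 at -0.08 and Edem3 at -0.68, with an interval of -1.94 to 0.59 for Edem3. The selenoproteins Selk and Vimp, which bind the Derlins, were at -0.46 and -0.27.

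The 4 sensor genes were all fitted below 0, and none passed. Xbp1 had 325, 408 and 390 CPM with compound D against 518, 478 and 475 CPM in 24 h GLT, without overlap (log2 -0.40, SE 0.15, adjusted p = 0.168 by edgeR). Gene counts do not separate the spliced form of Xbp1 from the unspliced one. Eif2ak3 was at -0.36, Ern1 at -0.46 and Atf6 at -0.82 (95% interval -1.66 to 0.02), and the last 2 were lowest in the preparation 2 library that stood apart. Of 67 other genes of ER quality control, from a list written with earlier results of these data known, 2 fell and none rose. They were Creb3, a membrane-bound transcription factor (-0.52), and Ube2g2, a ubiquitin-conjugating enzyme of ERAD (-0.54). This was 2.99% of the 67, close to the 2.12% of all genes that fell. The median of the 67 was -0.08. The insulin share of counts was 11.7%, 43.3% and 10.002% with compound D, against 23.0%, 25.8% and 9.32% in 24 h GLT. The summed acinar markers were 8.26 to 25.9 CPM with compound D and 10.5 to 15.4 CPM in 24 h GLT. The share of Rn45s, the ribosomal RNA precursor, was 7.23%, 1.56% and 6.92% with compound D, against 1.57%, 1.59% and 4.89% in 24 h GLT. The part of the markers and of Rn45s in the result was not tested. With a term for the insulin share in the fit, 9 genes fell, the same 8 among them.

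**Figure D2:**
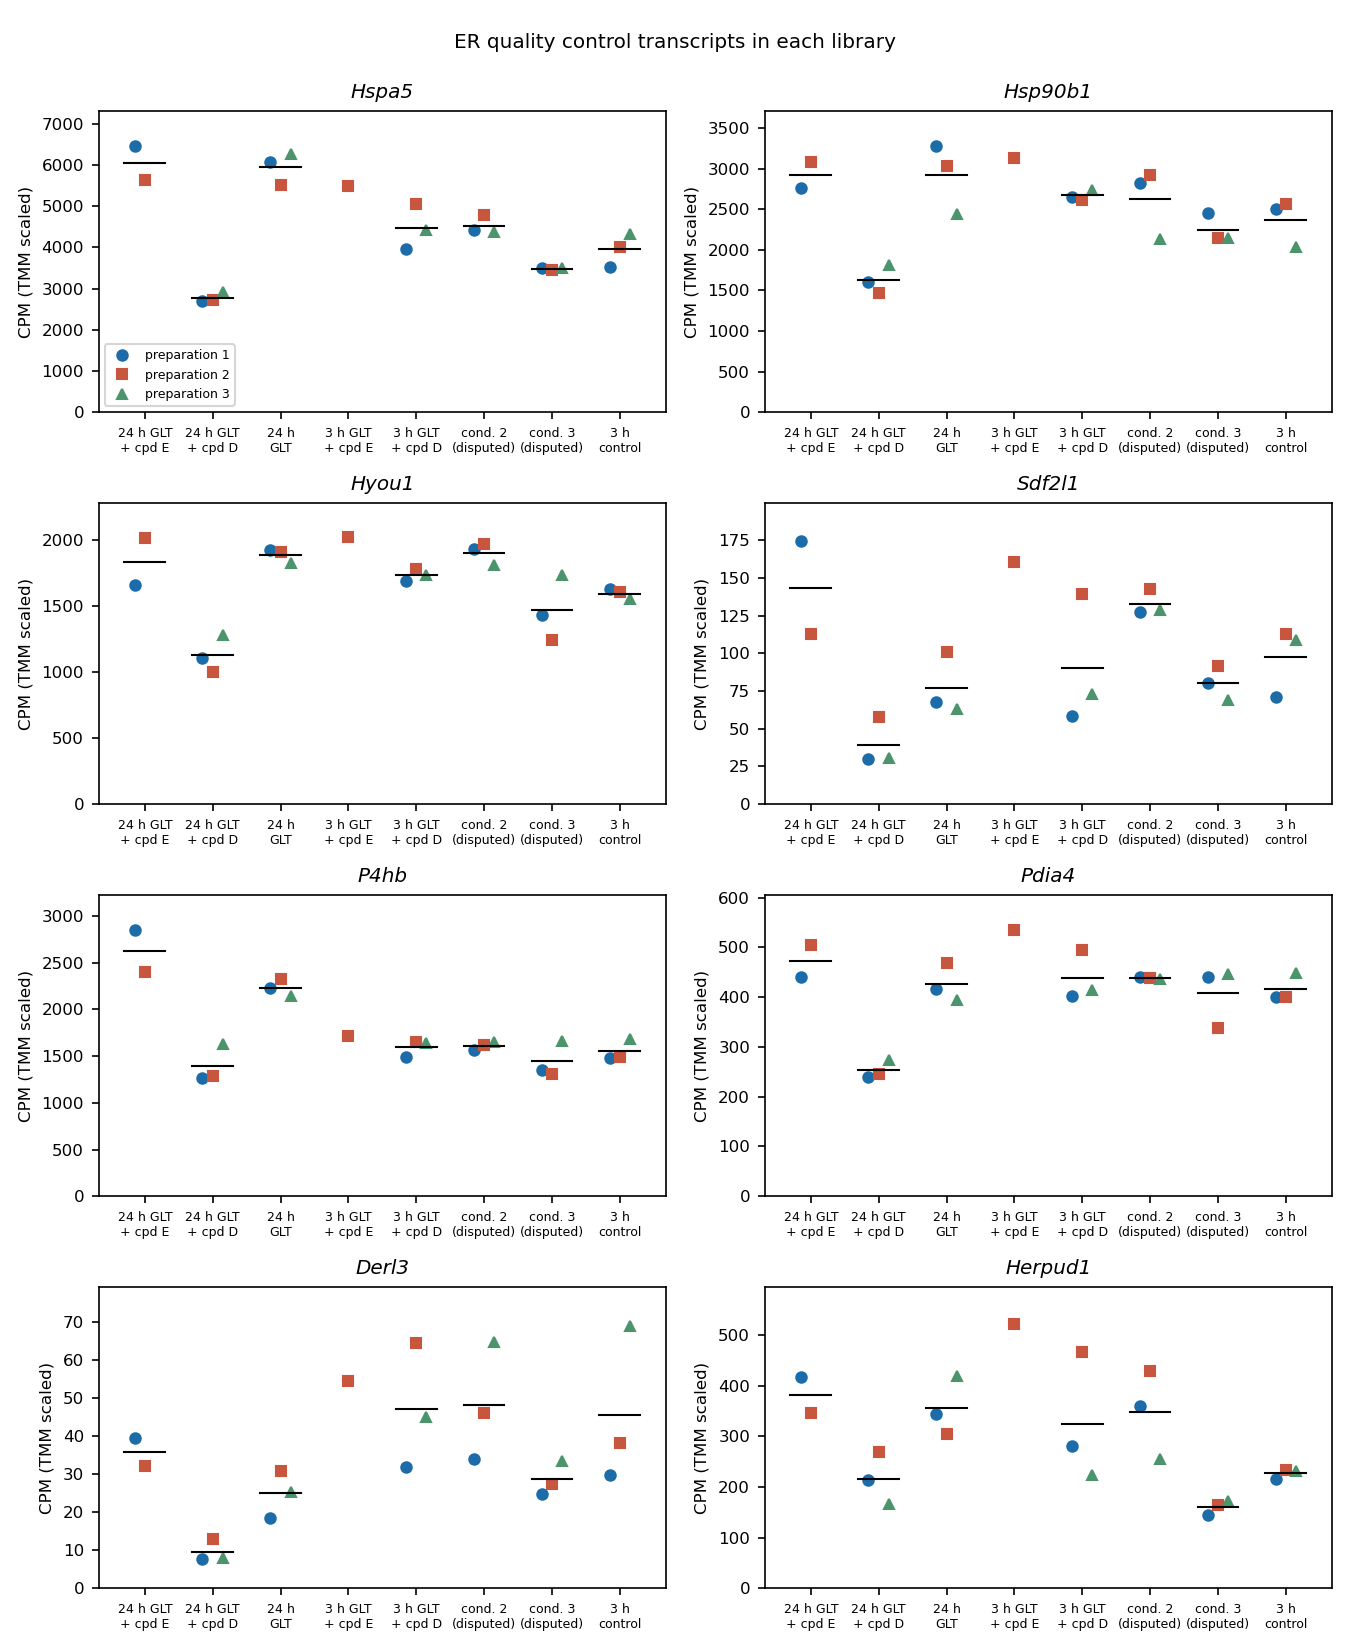
CPM (y axis, from 0) of 8 genes in each of the 21 libraries, by group, with the preparation shown by symbol and the group mean by a line where there were 2 or 3 libraries. The points of 24 h GLT with compound D lie below those of 24 h GLT with compound E and of 24 h GLT in each panel.

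The sequence upstream of the start was searched on both strands for ERSE (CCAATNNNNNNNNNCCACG), ERSE-II (ATTGG, 1 base of any kind, then CCACG) and the unfolded protein response element UPRE (TGACGTGG), in the 250 bases before the first listed start of each gene (RefSeq, GRCr8). Of the 38 genes, 30 matched a promoter by gene identifier. The other 8 were Manf, Pdia3, Pdia6, Ero1l, Derl1, Os9, Atf6 and Ern1. ERSE was present in 9 of the 30 (30.0%), against 21 of all 27457 promoters (0.0765%) and 16 of the 10175 promoters of tested genes (0.157%). ERSE-II was present in 2 (Hyou1 and Herpud1), against 12 promoters in all (0.0437%, and 0.118% for tested genes). UPRE was present in Hyou1 alone of the 30, against 0.550% of all promoters and 0.767% of those of tested genes. The UPRE match overlaps the first ERSE-II match of Hyou1. In all, 11 of the 30 genes (36.7%) held ERSE or ERSE-II, against 33 of all promoters (0.120%) and 28 of those of tested genes (0.275%).

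The windows below give 10 bases on each side of the match in genes that fell with compound D, and last in Herpud1. Each is printed on the gene's own strand from RefSeq (GRCr8). Capitals mark the fixed bases, and a match on the other strand reads as the reverse complement.

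Hsp90b1, first (chr7:23012441-23012479, gene on the minus strand): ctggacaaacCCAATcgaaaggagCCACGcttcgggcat

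Hsp90b1, second (chr7:23012337-23012375): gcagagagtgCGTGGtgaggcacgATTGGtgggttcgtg

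Hyou1, first ERSE-II (chr8:53602684-53602714, plus strand): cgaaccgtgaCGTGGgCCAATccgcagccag

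Hyou1, second ERSE-II (chr8:53602784-53602814): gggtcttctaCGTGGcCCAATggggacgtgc

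Dnajc3 (chr15:102432524-102432562, plus strand): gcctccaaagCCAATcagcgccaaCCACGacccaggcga

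Derl3 (chr20:12766591-12766629, gene on the minus strand): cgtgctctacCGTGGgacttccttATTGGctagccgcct

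Herpud1, ERSE-II (chr19:10614811-10614841, gene on the minus strand): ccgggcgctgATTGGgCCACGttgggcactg

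The matches began 43 bases before the start in Hspa5, 154 in Derl3, 133 in Dnajc3, 145 in Creld2, 65 in Xbp1, 224 in Ero1lb and 232 in Calr. Of the 11 genes with either element, 5 fell with compound D against 24 h GLT (Hspa5, Hsp90b1, Hyou1, Dnajc3 and Derl3), with a median log2 fold change of -0.75. One of the 11, which did not pass, is not shown by sequence or in the plot, and it counts in these values. Of the 19 without one, 3 fell (Dnajb11, P4hb and Pdia4), with a median of -0.46. The 17 other tested genes with either element had a median of -0.25, and 1 of them fell, while the 10128 other genes without one had a median of 0.01. These are descriptions of letters near an annotated start, not of binding, and they share the same libraries.

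**Figure D3:**
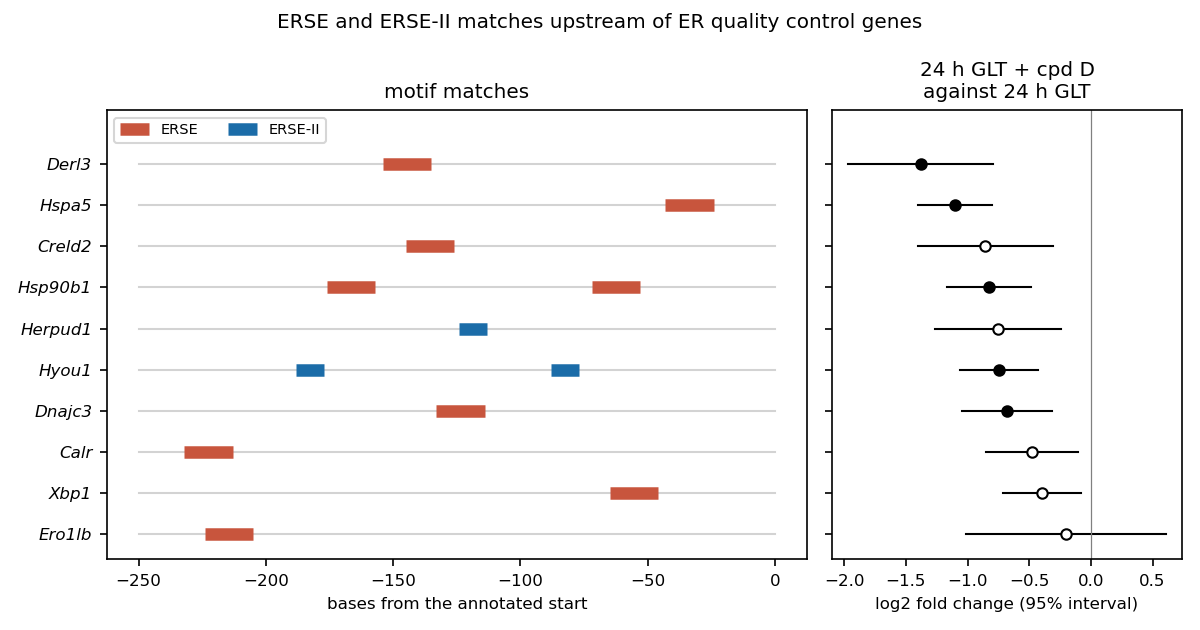
Positions of ERSE and ERSE-II matches in the 250 bases before the annotated start of 10 of the 11 genes that hold one (left, x axis in bases from the start) and the fitted log2 fold change with its 95% interval for compound D against 24 h GLT in the same genes (right, filled where the adjusted p was below 0.05). Genes are sorted by fold change, and the 5 filled points are Derl3, Hspa5, Hsp90b1, Hyou1 and Dnajc3.

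Compounds E and D were compared at 300 nM and 24 h, the only dose and the only time with more than 1 library of each. With compound E (n = 2), 10 of the 38 genes were higher than with compound D (n = 3) and none was lower, against 1.83% of all genes higher and 1.18% lower (edgeR, adjusted p below 0.05). Of the genes called, 60.8% were higher, and 24.6% when scaled by library size only. The 10 were 7 of 15 chaperones, 2 of 9 disulfide enzymes, 1 of 10 degradation factors and none of the 4 sensor genes. The median log2 fold change of the 38 was 0.57, against 0.00 over all genes. Both libraries with compound E lay above the 3 with compound D for 24 of 38 genes, as for 11.5% of all genes, and none lay below. In both shared preparations 26 of the 38 were higher with compound E and 0 were lower, where 18.3% of all genes were higher and 19.5% lower.

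Sdf2l1 had 174 and 113 CPM with compound E in preparations 1 and 2, against 30.0, 57.8 and 30.4 CPM with compound D in preparations 1 to 3 (log2 1.91, SE 0.30, adjusted p = 0.00348 by edgeR). Creld2 had 217 and 179 CPM against 61.4, 89.1 and 75.9 CPM (1.42, SE 0.28, adjusted p = 0.0160). Both genes were among those that missed the threshold for compound D against 24 h GLT. Derl3 had 39.6 and 32.1 CPM with compound E, above each library with compound D (2.08, SE 0.30, adjusted p = 0.00310), and P4hb had 2852 and 2398 CPM (0.97, SE 0.15, adjusted p = 0.00345). Hspa5 was at 6467 and 5650 CPM with compound E, and its log2 difference from compound D was 1.27 in preparation 1 and 1.06 in preparation 2. The other 5 that were higher were Hsp90b1, Hyou1, Dnajb11, Dnajc3 and Pdia4, at 0.73 to 0.99. Of the 28 that did not pass, Ero1l had a difference of 0.00 (95% interval -0.71 to 0.71), Canx -0.21 (-0.65 to 0.23), Dnajb9 0.21 (-0.19 to 0.61) and Atf6 0.05 (-0.93 to 1.02), intervals that leave differences of either sign. The insulin share was 42.6% and 35.3% with compound E, and with a term for it 8 of the 10 passed, with 254 of all genes. Without the preparation 1 library of compound E, 1 gene passed (Hspa5), with 46 of all genes. Without that of preparation 2, 26 passed (20 higher and 6 lower), with 2798 of all genes, and leaving out preparation 1 of compound D gave 5, with 136 of all genes. Without preparation 2 as a whole the count was 31 (24 higher and 7 lower), with 4543 of all genes. It was 0 of the 38 and 0 of all genes without preparation 1, and 3 with 101 of all genes without preparation 3, and a fit of these 5 libraries alone called 0 of the 38 and 0 of all genes.

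In 24 h GLT with compound E against 24 h GLT, 0 of the 38 and 0% of all genes passed in either direction by edgeR. DESeq2 also called 0 of the 38 and 0 of all genes. At an unadjusted p below 0.05 there were 813 of 12576 genes and 4 of the 38, namely Sdf2l1 (log2 0.92), Derl3 (0.70), Ppib (0.64) and Hspa13 (-0.87). Hspa5 had 6467 and 5650 CPM with compound E against 6075, 5529 and 6259 CPM in 24 h GLT, groups that overlapped, and its 95% interval of -0.29 to 0.38 excludes a fall of the size seen with compound D. The same held for Hsp90b1 (-0.42 to 0.34), Hyou1 (-0.37 to 0.34), P4hb (-0.04 to 0.61) and Pdia4 (-0.19 to 0.51). These intervals hold for TMM scaling alone and rest on 2 libraries with compound E, among them the preparation 1 library that stood apart. The median log2 fold change of the 38 was 0.16, against 0.04 over all genes. Scaled by library size only it was -0.24, against -0.36 over all genes. Sdf2l1 differed by 1.36 on the log2 scale in preparation 1 and by 0.16 in preparation 2, and Derl3 by 1.09 and 0.06. Without the preparation 2 library of compound E, which leaves the preparation 1 library that stood apart, 12 of the 38 passed, 6 higher and 6 lower, with 2710 of all genes. Without preparation 2 as a whole, 18 passed, 10 higher and 8 lower, with 3241 of all genes.

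In 3 h GLT with compound D against 3 h control (n = 3 each), 0 of 38 passed by edgeR, where 0.0954% of all genes were higher and 0.00795% lower, and 1 of the 38 and 817 of 12576 genes had an unadjusted p below 0.05. That gene was Txndc11, a thioredoxin-domain protein of the ER, with 134, 136 and 130 CPM in 3 h GLT with compound D against 90.9, 102 and 103 CPM in 3 h control, groups that did not overlap (log2 0.44, SE 0.12, adjusted p = 0.271). DESeq2 called Txndc11 alone of the 38, and 107 of all genes. Hspa5 was at 0.18 (95% interval -0.11 to 0.48). The single library of 3 h GLT with compound E was set against that of 3 h GLT with compound D of the same preparation, with no test. The median log2 difference of the 38 was 0.07, 26 were above 0, and none differed by over 2-fold, while 3.86% of all genes did. The values ran from -0.24 to 1.00, the highest being Ern1 (71.0 CPM with compound E and 35.5 CPM with compound D).

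Within the cultures with compound D, 24 h and 3 h differed. At 24 h, 8 of the 38 were lower than at 3 h and none was higher, against 3.05% of all genes lower and 3.07% higher (edgeR, adjusted p below 0.05, n = 3 each). The 8 were Hspa5, Hsp90b1, Hyou1, Sdf2l1, Creld2, Pdia4, Txndc11 and Derl3. Derl3 had 7.65, 12.9 and 7.99 CPM at 24 h against 32.0, 64.5 and 45.2 CPM at 3 h (log2 -2.29, SE 0.28, adjusted p = 0.000695), a fall to 0.204 times. Sdf2l1 had 30.0, 57.8 and 30.4 CPM at 24 h against 58.5, 140 and 73.2 CPM at 3 h (-1.19, SE 0.27, adjusted p = 0.0192). Txndc11 was at 96.8, 83.8 and 111 CPM at 24 h, below the 130 to 136 CPM at 3 h. P4hb (-0.20), Dnajb11 (-0.40) and Dnajc3 (-0.37), which fell with compound D against 24 h GLT, did not pass here. The number called was 0 without preparation 1, with 9 of all genes, against 769 in the full fit. It was 5 without preparation 2 (Ero1l higher and 4 lower), with 798 of all genes, and 1 (Derl3) without preparation 3, with 70. Leaving out 1 library, it was 5 and 3 without the 3 h and 24 h libraries of preparation 1, 4 and 5 without those of preparation 2, and 3 without the 3 h library of preparation 3.

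**Figure D4:**
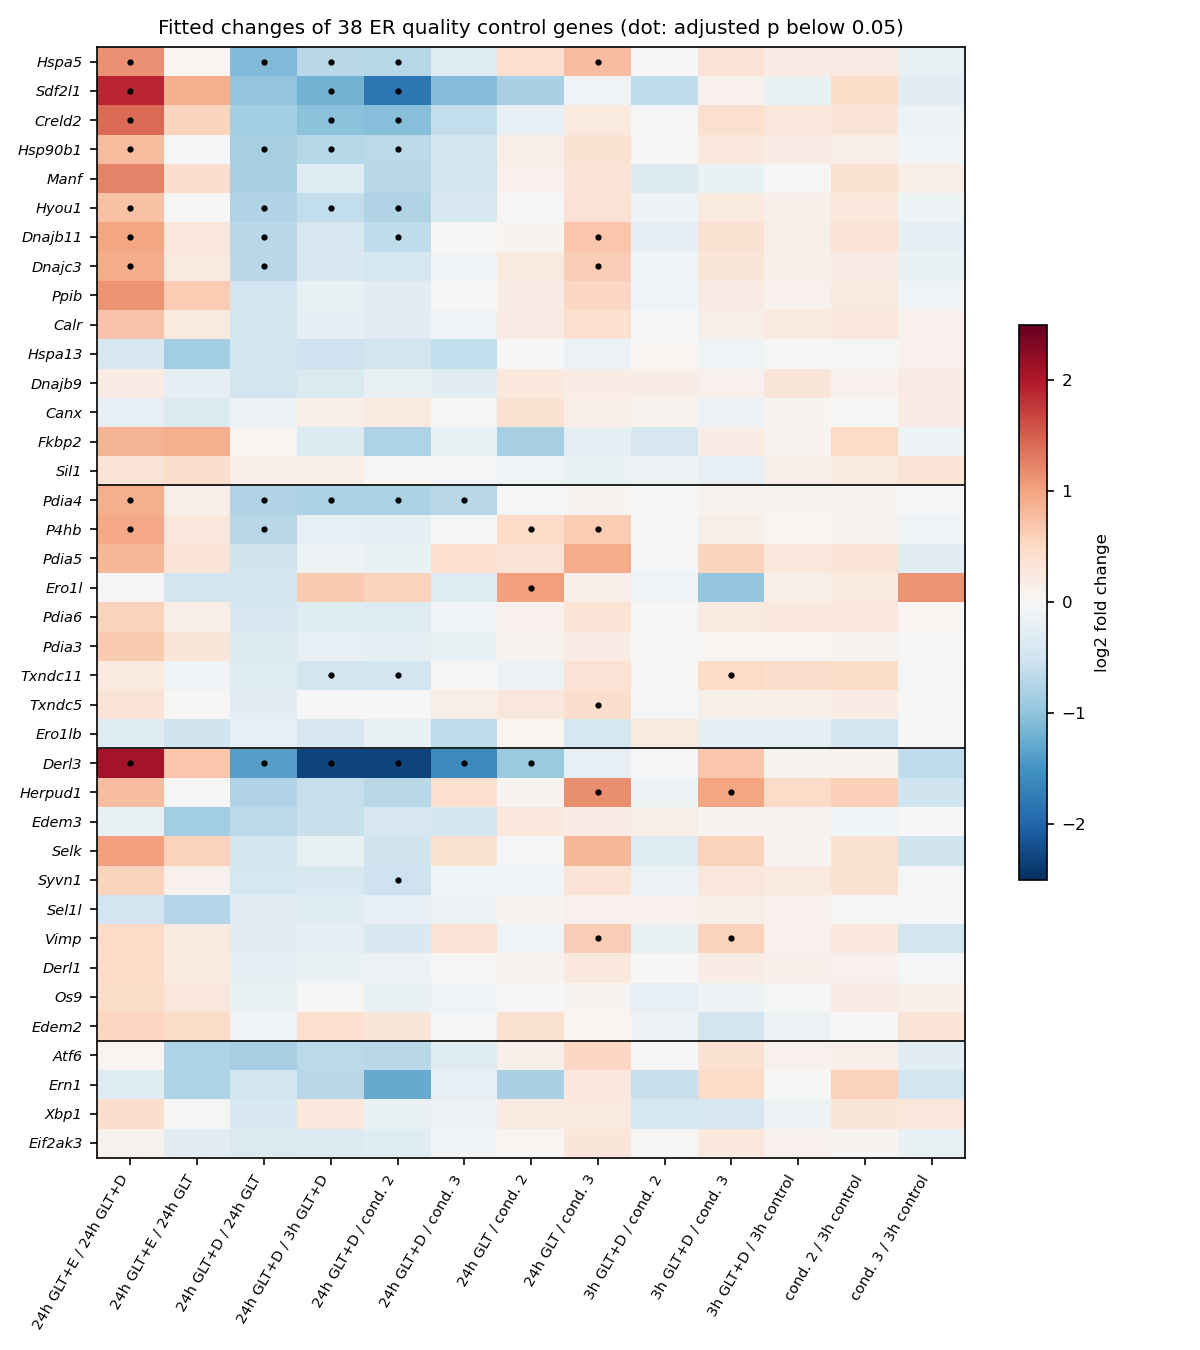
Fitted log2 fold changes (colour, red higher and blue lower in the group named first) of the 38 genes, sorted by role and separated by lines into chaperones, disulfide enzymes, degradation factors and sensors, in 13 comparisons. Dots mark adjusted p below 0.05; the columns of 24 h GLT with compound D against 24 h GLT and against 3 h GLT with compound D hold 8 blue dotted cells each, and the column of 24 h GLT against condition 3 holds 7 red ones.

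The comparisons of 24 h GLT with conditions 3 and 2 bear on GLT itself and depend on the disputed labels. Against condition 3, which is 3 h GLT in the records and 24 h control on the sheet, 7 of the 38 were higher in 24 h GLT and none was lower, where 3.31% of all genes were higher and 2.66% lower (edgeR, n = 3 each). Herpud1 had 343, 305 and 419 CPM in 24 h GLT, against 145, 164 and 173 CPM in condition 3 (log2 1.16, SE 0.24, adjusted p = 0.0142). Hspa5 had 6075, 5529 and 6259 CPM in 24 h GLT, against 3502, 3442 and 3505 CPM in condition 3 (0.77, SE 0.14, adjusted p = 0.00621). The groups did not overlap for either gene. P4hb (0.64), Dnajb11 (0.70), Dnajc3 (0.61), Vimp (0.62) and Txndc5, an isomerase of the same family (0.44), were the other 5. Vimp had 205, 168 and 208 CPM in 24 h GLT against 128, 128 and 121 CPM in condition 3, and Txndc5 362, 373 and 384 CPM against 263, 259 and 305 CPM. Derl3 and Sdf2l1, which were low with compound D, did not pass here (-0.21 and -0.08). Of the 67 other ER quality control genes, 9 were higher and 1 was lower, among them Rcn1, a calcium-binding ER protein (1.43), Erlin1 (0.84), Ube2g2 (0.73) and the ubiquitin ligase Rnf185 (0.68), all higher. The count of 7 was 1 without the preparation 2 library of condition 3, which stood apart, or without either preparation 1 library, 3 without the 24 h GLT library of preparation 2 or 3, 4 without the preparation 3 library of condition 3, 3 without preparation 2, and 0 without preparation 1 or 3. Hspa5 passed in each fit that left out a single library. The summed stellate cell markers were 477 to 873 CPM in 24 h GLT and 1076 to 1498 CPM in condition 3, and their part in the result was not tested.

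Against condition 2, in the records the 24 h control and on the sheet 3 h GLT, 2 of the 38 were higher in 24 h GLT and 1 was lower, against 3.63% of all genes higher and 4.89% lower, shares that are close to those of the 38. Ero1l had 381, 301 and 310 CPM in 24 h GLT against 166, 162 and 154 CPM in condition 2 (log2 1.03, SE 0.29, adjusted p = 0.0404 by edgeR). P4hb had 2226, 2320 and 2142 CPM against 1564, 1618 and 1655 CPM (0.47, SE 0.14, adjusted p = 0.0435). Both were above without overlap, whereas Derl3, with 18.6, 30.9 and 25.4 CPM in 24 h GLT against 33.9, 46.2 and 64.8 CPM, was below (-0.94, SE 0.27, adjusted p = 0.0449). Hspa5 was at 0.39 (adjusted p = 0.0956). These 3 calls were lost without preparation 1 or 3, without any one library of 24 h GLT or of condition 2, without the preparation 1 library of 3 h control, and without the preparation 1 or 3 library of condition 3 or of 3 h GLT with compound D. Only Ero1l passed without the preparation 1 library of compound D at 24 h.

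Ero1l showed a further split by group. Its level was 237 and 259 CPM in 24 h GLT with compound E, 110 to 365 CPM in 24 h GLT with compound D, 301 to 381 CPM in 24 h GLT and 265 to 350 CPM in condition 3. It was 152 CPM in the library of 3 h GLT with compound E, 140 to 179 CPM in 3 h GLT with compound D, 154 to 166 CPM in condition 2 and 93.5 to 173 CPM in 3 h control. In condition 3 against 3 h control it differed by 1.13 (SE 0.29, adjusted p = 0.0895 by edgeR).

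The disputed conditions were also set against 3 h control. In condition 2, 0 of 38 passed by edgeR, against 1.96% of all genes higher and 0.342% lower, with 4 of the 38 and 1659 of 12576 genes at an unadjusted p below 0.05: Txndc11 (0.45), Syvn1 (0.38), Herpud1 (0.60) and Dnajb11 (0.37). In condition 3, 0 of 38 passed by edgeR, against 0.254% higher and 0.437% lower, with 3 of the 38 and 1627 of 12576 genes at an unadjusted p below 0.05: Ero1l, Vimp (-0.46) and Derl3 (-0.63). DESeq2 called Txndc11 as higher in condition 2, with 587 of all genes, and Ero1l as higher in condition 3, with 378 of all genes. With a term for the insulin share, edgeR called Txndc11 as higher in condition 2, and Ero1l as higher and Vimp as lower in condition 3. It also called Ero1l as higher in condition 3 without preparation 2 or without the preparation 2 library of compound D at 24 h. In condition 2 the fitted fold change was above 0 for 32 of 38 genes (median 0.21), but for 14 when scaled by library size only (median -0.05, against -0.29 over all genes), and in condition 3 for 15 of 38 (median -0.06). The comparisons share the 3 h control libraries. The GLT effect at 24 h minus that at 3 h, which is the same contrast under both readings, called 0 of 38, against 0.0318% of all genes higher and 0.0398% lower. At an unadjusted p below 0.05 it had 2 of the 38 and 1050 of 12576 genes, and DESeq2 called Hspa5 and P4hb as higher, with 113 of all genes.

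At 3 h with compound D the number called also turned on the labels, for the 38 as for all genes. With condition 3 as the comparator (3 h GLT in the records), 3 of the 38 were higher with compound D and none was lower. Of all genes, 3.99% were higher and 2.94% lower. In either direction 7.89% of the 38 and 6.93% of all genes passed, shares that are close. Txndc11 had 134, 136 and 130 CPM with compound D at 3 h against 86.8, 88.0 and 111 CPM in condition 3 (log2 0.49, SE 0.12, adjusted p = 0.0236 by edgeR). Herpud1 had 282, 466 and 224 CPM against 145, 164 and 173 CPM (0.98, SE 0.24, adjusted p = 0.0256), and Vimp 169, 178 and 215 CPM against 128, 128 and 121 CPM (0.57, SE 0.14, adjusted p = 0.0286). The groups did not overlap for any of the 3 genes. The count was 0 without preparation 1 or 3, or without the preparation 1 or 2 library of either condition. With condition 2 as the comparator, which the sheet calls 3 h GLT, 0 of 38 passed, against 0.0636% of all genes higher and 0.429% lower. At an unadjusted p below 0.05 there were Sdf2l1 (-0.63) and Xbp1 (-0.43) among the 38 and 849 of 12576 genes, and DESeq2 called none of the 38 and 164 of all genes.

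The change with compound D at 24 h was tested against its change at 3 h as an interaction. With condition 3 as the 3 h GLT group, 13 of the 38 had a lower effect at 24 h than at 3 h (edgeR, adjusted p below 0.05), against 7.70% of all genes in either direction. With condition 2 as the 3 h GLT group, 0 of 38 passed by edgeR, against 0.0318% of all genes, and 9 of the 38 and 1012 of 12576 genes had an unadjusted p below 0.05. Hspa5 had a difference of effects of -1.46 (SE 0.20, adjusted p = 0.000810) in the first case and -1.08 (SE 0.20, adjusted p = 0.0751) in the second. For Herpud1 the difference was -1.73 in the first case (adjusted p = 0.00771) and -0.64 (adjusted p = 0.674) in the second. Under either reading the fitted difference was below 0 for most of the 38: 33 in the first and 32 in the second. Both differences hold the same change at 24 h, which was below 0 for 36 of the 38, so the 2 counts are not separate evidence. The medians of the 38 were -0.70 and -0.40, against 0.01 and 0.02 over all genes. In the first case the count was 0 without preparation 1, with 12 of all genes, 4 without preparation 2, 5 without preparation 3, and 8 without the 24 h GLT library of preparation 1 or of preparation 2. In the second case DESeq2 called Hsp90b1, Hspa5, P4hb and Pdia4 as lower, with 90 of all genes, and edgeR called Hspa5 without the preparation 2 library of condition 3, which stood apart.

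Compound D at 24 h was also set against each disputed condition. Set against condition 2, the records' 24 h control, 10 of the 38 fell and none rose, against 6.60% of all genes lower and 5.93% higher (edgeR): Sdf2l1 (-1.81), Derl3 (-2.32), Creld2 (-1.07), Pdia4 (-0.79), Hyou1 (-0.76), Hspa5 (-0.71), Hsp90b1 (-0.67), Dnajb11 (-0.63), Syvn1 (-0.52) and Txndc11 (-0.48). Sdf2l1 had 30.0, 57.8 and 30.4 CPM with compound D against 127, 143 and 129 CPM in condition 2, groups that did not overlap. The count was 3 without preparation 1, 4 without preparation 3 and 5 without the preparation 1 or the preparation 2 library of condition 2. Set against condition 3, the sheet's 24 h control, 2 fell and none rose, against 0.254% of all genes lower and 0.461% higher: Derl3 (-1.59) and Pdia4 (-0.69). Hspa5 had 2688, 2717 and 2927 CPM with compound D against 3502, 3442 and 3505 CPM, without overlap (-0.33, adjusted p = 0.336). The count of 2 was 0 without preparation 1 or 3 and without the preparation 1 or 3 library of either condition. It was 1 without the preparation 2 library of compound D at 24 h, without any single library of condition 2 or 24 h GLT, without either of the preparation 1 and 2 libraries of 3 h control, and without the preparation 1 or 3 library of compound D at 3 h.

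Over the 21 libraries, the 38 genes differed in how far they ranged. Txndc5 had the narrowest range, 259 to 384 CPM (highest over lowest 1.48), followed by Txndc11 (1.66), Canx (1.67) and Syvn1 (1.71). Ern1 (12.3), Edem3 (11.7), Derl3 (9.02) and Selk (8.57) had the widest. For Ern1 and Edem3 the lowest value was in the preparation 1 library of 24 h GLT with compound E, and for Selk in the preparation 2 library of condition 3, both among the libraries that stood apart. For Derl3 it was in the preparation 1 library of 24 h GLT with compound D, and its highest, 69.0 CPM, in the preparation 3 library of 3 h control. Hspa5 ranged from 2688 to 6467 CPM (2.41).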

How the data were processed

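The deposited values were counts per gene, not normalized. Per the labels' protocols, alignment used TopHat2 2.0.3 with Bowtie2 2.0.0 on rn5, the reads were paired and 100 bp long, and HTSeq made the counts. The annotation and strand setting are not given in the sources used here, so reads of overlapping or antisense genes cannot be told apart. Neither scaling nor testing used the 5 rows without a gene name: 10.3% to 18.7% of each column lay outside annotated genes, 4.92% to 23.4% had more than 1 alignment and 0.161% to 2.32% were ambiguous.

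Genes were tested with edgeR 4.0.16 (limma 3.58.1, R 4.3.3): all 21 libraries in 1 fit, terms for condition and preparation, TMM scaling, filterByExpr, the 2-sided quasi-likelihood test and Benjamini-Hochberg adjustment over 12576 genes, with calls at 0.05. DESeq2 1.42.0 was an alternative. Log2 fold changes are fitted values with SE and 95% intervals, which cover the spread between libraries left after these terms. Per-preparation differences used CPM plus 0.1. The block comes from the labels, since each preparation was split over the conditions. Libraries of 1 preparation deviated from their condition means together (mean r 0.205, and 0.0698, 0.183 and 0.425 for preparations 1, 2 and 3), while r between preparations averaged -0.158. Each condition mean was taken over 2 or 3 libraries, 1 per preparation, which by itself pushes r between preparations below 0. That value is therefore no measure of a preparation effect. Each library is 1 culture of pooled islets. The p-values rest on the spread between libraries that remains after the terms for condition and preparation, taken over all groups. The libraries come from 3 preparations, and those of 24 h GLT with compound E from preparations 1 and 2 alone. A floor of 3 counts was 0.0804 to 0.144 CPM, for counting error only.

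The 40 symbols, their roles and the list of 75 other ER quality control symbols (67 found) were chosen with earlier results of these data known. Any of the 40 could be named. Those written out per library were Hspa5 and up to 6 per role that were called for compound D or 24 h GLT, with a few others chosen after their values were seen. The pipeline was tested on simulated counts. Promoters were read from RefSeq on GRCr8 by gene identifier, and no coordinates of the count table's build were used. The window of 1 further match is not reported here.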

Additional observations from a re-analysis of the deposited data

Results flagged for a closer look

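The change with compound D against GLT was lower at 24 h than at 3 h in 13 genes when condition 3 was taken as 3 h GLT, by the interaction term in edgeR. The log2 differences of effects (24 h minus 3 h) were -1.46 for Hspa5, -1.08 for Hsp90b1, -0.99 for Hyou1, -1.09 for Dnajb11, -0.98 for Dnajc3 and -1.26 for Creld2 among the chaperones. They were -0.84 for P4hb, -0.85 for Pdia4 and -0.82 for Txndc11 among the disulfide enzymes, and -1.73 for Herpud1, -0.72 for Syvn1, -2.08 for Derl3 and -0.84 for Vimp among the degradation factors. With condition 2 taken as 3 h GLT, none of them passed by edgeR, and DESeq2 called Hspa5, Hsp90b1, P4hb and Pdia4.

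Under the records' labels the GLT effect had one sign in each preparation at 24 h and the other sign in each at 3 h for 3 genes. The share of all genes with such a pattern was not counted, so the 3 cannot be set against it. Of all genes, 28.9% were higher and 30.4% lower in every preparation in 24 h GLT against condition 2. For condition 3 against 3 h control the shares were 14.8% and 16.6%. The difference of effects was 0.57 for Hspa5 (0.39 at 24 h and -0.18 at 3 h), 0.58 for P4hb (0.47 and -0.11) and 0.39 for Atf6 (0.13 and -0.26). None passed the test of the difference (adjusted p = 0.398, 0.381 and 0.933 by edgeR), and under the sheet's labels no gene of the 38 showed such a pattern.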

How the results depend on the processing

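The number of the 38 genes called moved with the processing, while none of the genes called in a comparison or in a difference of effects changed direction in an alternative that was run. With a value for each called gene under each alternative, 1590 kept their side of the threshold and 522 lost it. With library size only in place of TMM, the count was 3 for 24 h GLT with compound D against 24 h GLT, 2 for compound E against D, 3 for 24 h against 3 h with compound D, 3 and 1 for 24 h GLT against conditions 3 and 2, 1 and 2 for 24 h compound D against conditions 3 and 2, and 6 for the difference of compound D effects with condition 3 as 3 h GLT. Calls over all genes fell as well. In the same order they went from 513 to 215, 378 to 236, 769 to 240, 751 to 292, 1072 to 633, 90 to 23, 1576 to 1302 and 968 to 361. That scaling moved the median log2 fold change of all genes to -0.36 and -0.39 when compound E was set against 24 h GLT and D, 0.24 and 0.25 for 24 h GLT and 24 h compound D against condition 2, 0.31 and 0.15 for 3 h compound D against conditions 2 and 3, -0.29 and -0.14 for conditions 2 and 3 against 3 h control, 0.38 for the difference of GLT effects, and -0.15 and -0.30 for that of compound D effects with conditions 3 and 2 as 3 h GLT. The share of calls that were higher moved from 42.6% to 71.7% for 24 h GLT against condition 2, 47.3% to 75.5% for 24 h compound D against condition 2, 57.6% to 84.4% for 3 h compound D against condition 3, 55.4% to 67.8% for 24 h GLT against condition 3, and 48.8% to 31.9% for the difference of compound D effects with condition 3 as 3 h GLT.

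Without the block for preparation (no replicate block), the count was 4 and 0 for 24 h GLT against conditions 3 and 2 and 0 for 24 h compound D against condition 3, and no other count moved by over 1.5 times. With the libraries of the compared groups alone it was 3 for compound D against 24 h GLT, 0 for compound E against D, 1 and 8 for 24 h GLT against conditions 3 and 2, 0 for 3 h compound D against condition 3, and 0 and 5 for 24 h compound D against conditions 3 and 2. DESeq2 called 13 for compound D against 24 h GLT, 19 for compound E against D, 1 for 3 h compound D against 3 h control, 6 for 24 h GLT against condition 2, 1 each for conditions 2 and 3 against 3 h control, 6 for 3 h compound D against condition 3, 2 for the difference of GLT effects, and 4 for that of compound D effects with condition 2 as 3 h GLT. A term for the class of ambiguous reads set apart only the preparation 2 library of condition 3. With it the count was 1 for 24 h GLT against condition 3, with 217 of all genes, and 0 for 3 h compound D against condition 3, with 489. For the difference of compound D effects with condition 2 as 3 h GLT it was 1, with 13 of all genes. Terms for the ambiguous share and the insulin share were chosen after seeing the data. The first gave 2 and 1 for 24 h GLT against conditions 3 and 2, with 247 and 1010 of all genes. It gave 1 and 0 for 3 h and 24 h compound D against condition 3, with 93 and 0 of all genes. The second gave 1 and 2 for conditions 2 and 3 against 3 h control, with 370 and 235 of all genes. It gave 5 for 3 h compound D against condition 3, with 1150 of all genes. For the difference of compound D effects with condition 2 as 3 h GLT it gave 1, with 6 of all genes.

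With 1 library or 1 preparation left out, the count ran from 0 to 10 for compound D against 24 h GLT, 0 to 31 for compound E against D, 0 to 18 for compound E against 24 h GLT, 0 to 8 for 24 h against 3 h with compound D, 0 to 8 and 0 to 4 for 24 h GLT against conditions 3 and 2, 0 to 4 for 3 h compound D against condition 3, 0 to 3 and 3 to 11 for 24 h compound D against conditions 3 and 2, 0 to 1 for condition 3 against 3 h control, and 0 to 15 and 0 to 1 for the difference of compound D effects with conditions 3 and 2 as 3 h GLT. Counts over all genes moved too. In the full fit they were 513 for compound D against 24 h GLT and 769 for 24 h against 3 h with compound D. They were 751 and 1072 for 24 h GLT against conditions 3 and 2. In the same order they were 0, 9, 15 and 21 without preparation 1, 234, 798, 455 and 1222 without preparation 2, and 87, 70, 90 and 83 without preparation 3. Where a group was left with 1 library, that library was assumed to vary like the others. The cause of these shifts was not tested. The lowest count of any of the 38 was 232, and what depth limits was not tested.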

Other observations

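Of the 67 other ER quality control genes, Rcn1, which encodes a calcium-binding protein of the ER lumen, was higher in the group named first in each of the 5 comparisons in which it passed by edgeR. The log2 fold change was 1.498 in 24 h against 3 h with compound D, 1.43 and 1.59 in 24 h GLT against conditions 3 and 2, and 1.22 and 1.37 in 24 h GLT with compound D against conditions 3 and 2. Creb3, a membrane-bound transcription factor, fell with compound D against 24 h GLT (-0.52) and was higher with compound E than with compound D (0.73). It was also higher in 24 h GLT than in condition 3 (0.60).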
